A study of Mus musculus with 2 samples.

Results

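The genes described here are 9 members of Toll-like receptor signalling, chosen by symbol from the 32285 genes of the count matrices. They are the receptors *Tlr1*, *Tlr2*, *Tlr3*, *Tlr4*, *Tlr7*, *Tlr9* and *Tlr13* and the adaptors *Myd88* and *Ticam1*, and all 9 were found in both matrices. Their level in each cell class of the hippocampus was measured by single-nucleus RNA sequencing with 10x Genomics 3′ chemistry. The question for each gene was which cell class carried it, and for *Tlr3* in astrocytes whether its level differed between the genotypes. There was 1 library of PS19 mice with intact *Zbp1* (PS19 Zbp1-WT) and 1 library of PS19 mice without it (PS19 Zbp1-KO, called PZKO), each from pooled hippocampi of males aged 9 months. All of these animals carried the PS19 transgene, a P301S mutant human tau driven by the prion protein promoter, so neither library is a control without tauopathy, and no treatment was given. Both labels say pooled, and the study states how many males were pooled for each genotype. Its protocol also describes separate processing of each animal, so how the animals were combined in a library is uncertain. The deposited counts do not say which nucleus came from which animal. With 1 library per genotype a difference between genotypes cannot be told apart from a difference between libraries, so no test was made, and every interval given is a 95% interval for counting error only.

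Toll-like receptors are innate immune receptors that bind molecules of microbes and of damaged cells. *Tlr1*, *Tlr2* and *Tlr4* code for receptors of the cell surface that bind bacterial lipopeptides or lipopolysaccharide, whereas *Tlr3*, *Tlr7*, *Tlr9* and *Tlr13* code for endosomal receptors of double-stranded RNA, single-stranded RNA, DNA with unmethylated CpG and bacterial ribosomal RNA. MyD88 is the adaptor of nearly all of these receptors, and TRIF, the product of *Ticam1*, is the adaptor of TLR3 and of endosomal TLR4. In the brain microglia are the cells best known for these receptors, and astrocytes are known to carry TLR3. ZBP1, the protein absent from PZKO mice, is another sensor of nucleic acids, which binds left-handed double helices and shares with TRIF a motif that recruits RIP kinases.

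In mm10 (GENCODE M21) all 9 members are protein-coding genes. *Tlr3* lies on the minus strand of chromosome 8 from 45395665 to 45411080, where the predicted gene *Gm45542* runs on the other strand. *Tlr1* (chromosome 5, 64924679 to 64933563, minus strand) has a close paralog in *Tlr6*, which gave 31 and 33 UMIs in PS19 and PZKO microglia. *Tlr2* is on chromosome 3 (83836272 to 83841767, minus strand) and *Tlr4* on chromosome 4 (66827584 to 66930284, plus strand). *Tlr7* (167304929 to 167330558, minus strand) and *Tlr13* (106143204 to 106160493, plus strand) are both on chromosome X. *Tlr9* is on the plus strand of chromosome 9 from 106222598 to 106226883. *Myd88* is on the minus strand of the same chromosome from 119335934 to 119341411, where it overlaps *Slc22a14* on its own strand and *Acaa1a* on the other, and how reads in these overlaps were assigned is not given in the sources used here, so its counts are uncertain. *Ticam1* is on chromosome 17 (56269319 to 56276786, minus strand).

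RefSeq promoter sequences (GRCm38.p6, 250 bases before to 50 after the start of transcription) matched 7 of the 9 members, all but *Tlr4* and *Tlr7*. They were searched on both strands for GAAANNGAA, the core bound by interferon regulatory factors, and for GAGGAAGT, a core bound by PU.1, the transcription factor that defines myeloid cells. GAAANNGAA is present in 8.53% and GAGGAAGT in 3.11% of the 32544 promoters, or in at least 1 promoter of 9.76% and 3.69% of the 27025 genes, and the motifs do not overlap in the members. Of the 7 genes, 3 held a match, and they are printed 5′ to 3′ with the match in capitals, beside the promoter of *Tlr3*, the one receptor of the set that was highest in astrocytes. *Myd88* (chr9:119339969-119340268, minus strand) has GAAANNGAA beginning 40 bases before the start. *Tlr1* (chr5:64933509-64933808, minus strand) has GAGGAAGT beginning 23 bases before the start, and *Tlr9* (chr9:106222348-106222647, plus strand) has the reverse complement of GAGGAAGT beginning 10 bases after it. The *Tlr3* promoter (chr8:45410331-45410630, minus strand), a further *Tlr1* promoter and those of *Tlr2*, *Tlr13* and *Ticam1* hold neither, which says only that these letters are not in the window. The printed *Tlr3* and *Myd88* windows lie wholly inside the GENCODE M21 bounds given above. Their RefSeq starts are thus downstream of the 5′ ends of those gene records.
Tlr3: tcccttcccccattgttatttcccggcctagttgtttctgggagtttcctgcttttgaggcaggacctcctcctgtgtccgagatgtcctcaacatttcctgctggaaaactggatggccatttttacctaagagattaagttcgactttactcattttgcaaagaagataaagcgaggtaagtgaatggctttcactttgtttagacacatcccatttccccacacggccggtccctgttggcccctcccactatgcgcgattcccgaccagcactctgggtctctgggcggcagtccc
Tlr1: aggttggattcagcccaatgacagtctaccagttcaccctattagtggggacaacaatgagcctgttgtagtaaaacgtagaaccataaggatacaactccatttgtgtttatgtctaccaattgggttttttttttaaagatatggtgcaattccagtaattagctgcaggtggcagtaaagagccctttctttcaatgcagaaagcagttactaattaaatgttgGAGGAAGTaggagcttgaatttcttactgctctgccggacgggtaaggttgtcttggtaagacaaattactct
Tlr9: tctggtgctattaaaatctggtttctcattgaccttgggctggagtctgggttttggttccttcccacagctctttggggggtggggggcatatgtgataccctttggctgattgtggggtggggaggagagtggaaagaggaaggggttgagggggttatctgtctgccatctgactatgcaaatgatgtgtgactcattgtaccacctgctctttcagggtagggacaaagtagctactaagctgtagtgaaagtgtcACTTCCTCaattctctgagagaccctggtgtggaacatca
Myd88: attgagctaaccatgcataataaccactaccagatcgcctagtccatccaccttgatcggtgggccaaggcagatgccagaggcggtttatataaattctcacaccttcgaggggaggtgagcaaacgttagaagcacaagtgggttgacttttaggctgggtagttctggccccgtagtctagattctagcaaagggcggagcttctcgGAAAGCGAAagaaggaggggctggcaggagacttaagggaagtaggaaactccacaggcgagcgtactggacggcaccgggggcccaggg

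After filtering and removal of doublets, 9590 PS19 nuclei and 9307 PZKO nuclei were kept, with a median of 5850 and 9015 UMIs (unique molecular identifiers, each 1 captured RNA molecule). Nuclei were clustered without the 9 genes and the other pathway genes and named from marker genes, which left 5.93% and 5.97% of nuclei unnamed. The libraries shared 30 of the barcodes kept. All 9 astrocyte markers and all 9 microglial markers had UMIs in their class in both libraries, and the summed marker levels were close between them (7243 and 6933 UMIs per 1000000, CPM, in astrocytes, and 6934 and 7025 CPM in microglia). The level of *Zbp1* itself was 14.7 CPM over PS19 microglia, from 48 UMIs, and 5.94 CPM over PZKO microglia, from 20 UMIs. It was lower in the PZKO library but not at 0, and the deleted part of the gene was not compared with the 3′ tags.

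The Toll-like receptors were mostly microglial genes and *Tlr3* was an astrocyte gene. By the highest CPM over both libraries, 7 of the 9 members were highest in microglia or macrophages, *Tlr3* was highest in astrocytes and *Ticam1* in oligodendrocytes. The share of all genes highest in microglia or macrophages was not counted, so this number has no background beside it. *Tlr13* was placed in macrophages from 8 UMIs in PS19 and 0 in PZKO. *Myd88* was placed in microglia, although in PS19 endothelial cells had the higher level (7.4 against 5.82 CPM). Only classes with at least 100 nuclei over both libraries entered this order, except that macrophages and T cells were kept at any number. Cajal-Retzius cells were left out by this rule, and so were monocytes and neutrophils, a class of 9 PS19 and 14 PZKO nuclei. The latter class gave 11 UMIs of *Tlr7*, all in PZKO (226 CPM, 113 to 404), 5 UMIs of *Tlr3*, 4 of *Tlr4* and 2 of *Tlr2*. It also gave 1 UMI of *Tlr1* and 1 UMI of *Myd88*. In its PZKO nuclei the 9 astrocyte markers were at a median of 32.3% of their astrocyte level, which limits the reading of *Tlr3* there. With all named classes in the order, *Myd88* was highest in monocytes and neutrophils, from that 1 UMI. Microglia held 92.6% of the *Tlr7* UMIs of the PS19 library and 89.8% of those of the PZKO library, although they were 9.89% and 8.14% of the nuclei. They also held 88.8% and 92% of the *Tlr1* UMIs, 81.4% and 77.7% of the *Tlr2* UMIs, and 79.4% and 85.7% of the *Tlr13* UMIs. In contrast, astrocytes held 65% and 67.8% of the *Tlr3* UMIs, with 10.9% and 11.2% in microglia. *Tlr4* was divided between microglia (57.2% and 49%) and astrocytes (29.3% and 34.2%). The adaptors were spread more widely, and the largest shares were 29.4% for *Myd88*, in PZKO excitatory neurons, and 36.5% for *Ticam1*, in PS19 oligodendrocytes. A share also follows the size and depth of a class, and excitatory neurons held 94381128 of the 151995959 UMIs kept in PZKO. The level of *Myd88* in them was only 0.39 CPM in PS19 and 0.392 CPM in PZKO, against 5.82 and 7.72 CPM in microglia.

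**Figure D1:**
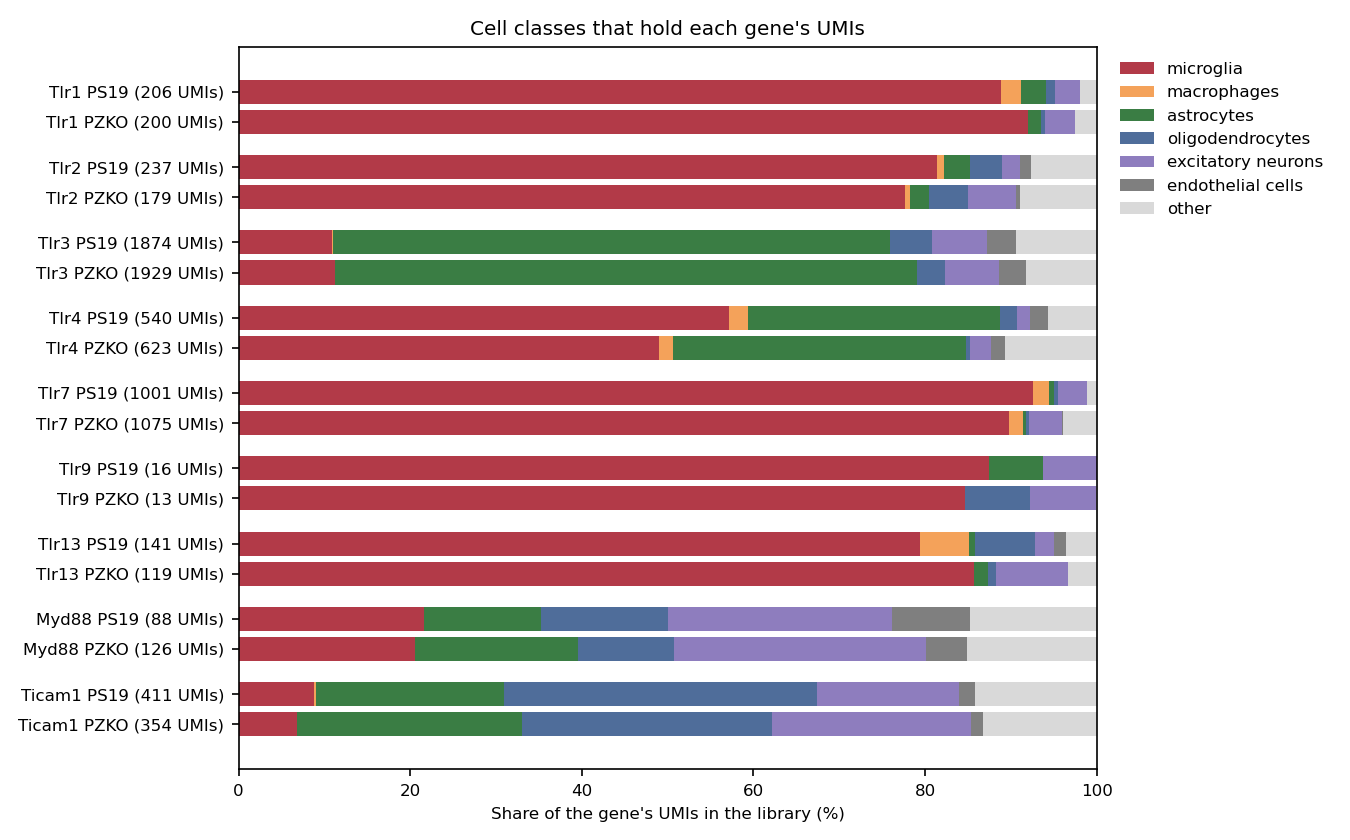
Share of each gene's UMIs (x axis, %) found in each cell class, 1 bar per gene and library, with the gene's UMIs over all nuclei kept in brackets and classes not listed, unnamed nuclei included, as other. Microglia fill most of the bars of *Tlr1*, *Tlr2*, *Tlr7*, *Tlr9* and *Tlr13*, astrocytes most of the *Tlr3* bars (65% and 67.8%), and the bars of *Myd88* and *Ticam1* are divided among several classes.

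*Tlr3*, the receptor of double-stranded RNA, gave 1218 UMIs in the 1083 PS19 astrocytes, a level of 150 CPM (142 to 159), and 1307 UMIs in the 1166 PZKO astrocytes, a level of 118 CPM (112 to 125). The intervals of the libraries did not overlap, and the PZKO level was lower by a log2 ratio of -0.35 (-0.46 to -0.24). Among the 11831 genes with at least 100 UMIs in astrocytes, 17.8% had a ratio as low or lower, so the difference was not unusual for this class. At least 1 *Tlr3* UMI was found in 55.6% of PS19 and 54.6% of PZKO astrocytes. Since PZKO astrocytes were sequenced more deeply (median 8954.5 against 6894 UMIs), each nucleus was also thinned to 2000 UMIs, leaving out 4 shallower nuclei in each library. The share with *Tlr3* was then 23.1% in PS19 (20.6% to 25.7%) and 19.5% in PZKO (17.3% to 21.9%), intervals that overlap.

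The next classes in the order of *Tlr3* levels were microglia and endothelial cells. Microglia had 62.8 CPM in PS19 (54.5 to 72) and 64.4 CPM in PZKO (56.1 to 73.6), so that the astrocyte level was 2.39 times the microglial one in PS19 (2.06 to 2.79) and 1.83 times in PZKO (1.59 to 2.12). Endothelial cells had 57.4 and 46 CPM from 62 and 60 UMIs, which did not differ from microglia beyond counting error in PS19 (microglia over endothelial cells 1.09, 0.82 to 1.48) and did so narrowly in PZKO (1.4, 1.05 to 1.9). The endothelial log2 ratio between the libraries was -0.32 (-0.85 to 0.22), with an interval that includes 0. The astrocyte markers were also found at low levels outside astrocytes, and *Tlr3* is set beside them. Free RNA, doublets and expression by the class itself cannot be told apart in these values. In microglia the 9 astrocyte markers were at a median of 5.1% and 5.52% of their astrocyte level and at most 22.7% and 19.3%, whereas *Tlr3* was at 41.8% and 54.6%. In endothelial cells the markers were at a median of 7.18% and 5.35% and at most 32.2% and 22.8%, whereas *Tlr3* was at 38.2% and 39%.

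Oligodendrocytes and excitatory neurons had *Tlr3* near the median of the astrocyte markers. In oligodendrocytes it was at 9.7 CPM in PS19 and 6.12 CPM in PZKO, 6.45% and 5.18% of the astrocyte level, beside medians of 6.62% and 5.48% for the astrocyte markers. Excitatory neurons had 2.07 and 1.28 CPM, 1.38% and 1.09% of the astrocyte level, beside marker medians of 1.16% and 0.995%. The log2 ratios in these classes were -0.67 (-1.15 to -0.19) and -0.69 (-1.07 to -0.32). The single markers ranged from 2.01% to 23.4% in PS19 oligodendrocytes, so these levels are not read as expression of *Tlr3* in either class or as a difference between the libraries. In vascular leptomeningeal cells (VLMC) *Tlr3* was at 40.9 CPM in PS19 (25.6 to 61.9, 22 UMIs) and 16.1 CPM in PZKO (9.99 to 24.7, 21 UMIs), and the log2 ratio was -1.34 (-2.28 to -0.41). In this class the astrocyte markers were at a median of 20.7% and 16.4% of their astrocyte level and at most 133% and 122%, so *Tlr3* could not be read against them. Choroid plexus cells had 24.7 CPM (57 UMIs) and 18.3 CPM (23 UMIs), with a log2 ratio of -0.43 (-1.20 to 0.29) that did not exceed counting error. Inhibitory neurons, oligodendrocyte precursor cells and ependymal cells had 20 to 45 UMIs each and levels from 1.41 to 13.1 CPM. The log2 ratio in inhibitory neurons was -1.02 (-1.95 to -0.12), from 25 and 20 UMIs. It was -0.10 (-1.44 to 1.31) in oligodendrocyte precursor cells and 0.15 (-1.27 to 1.57) in ependymal cells.

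**Figure D2:**
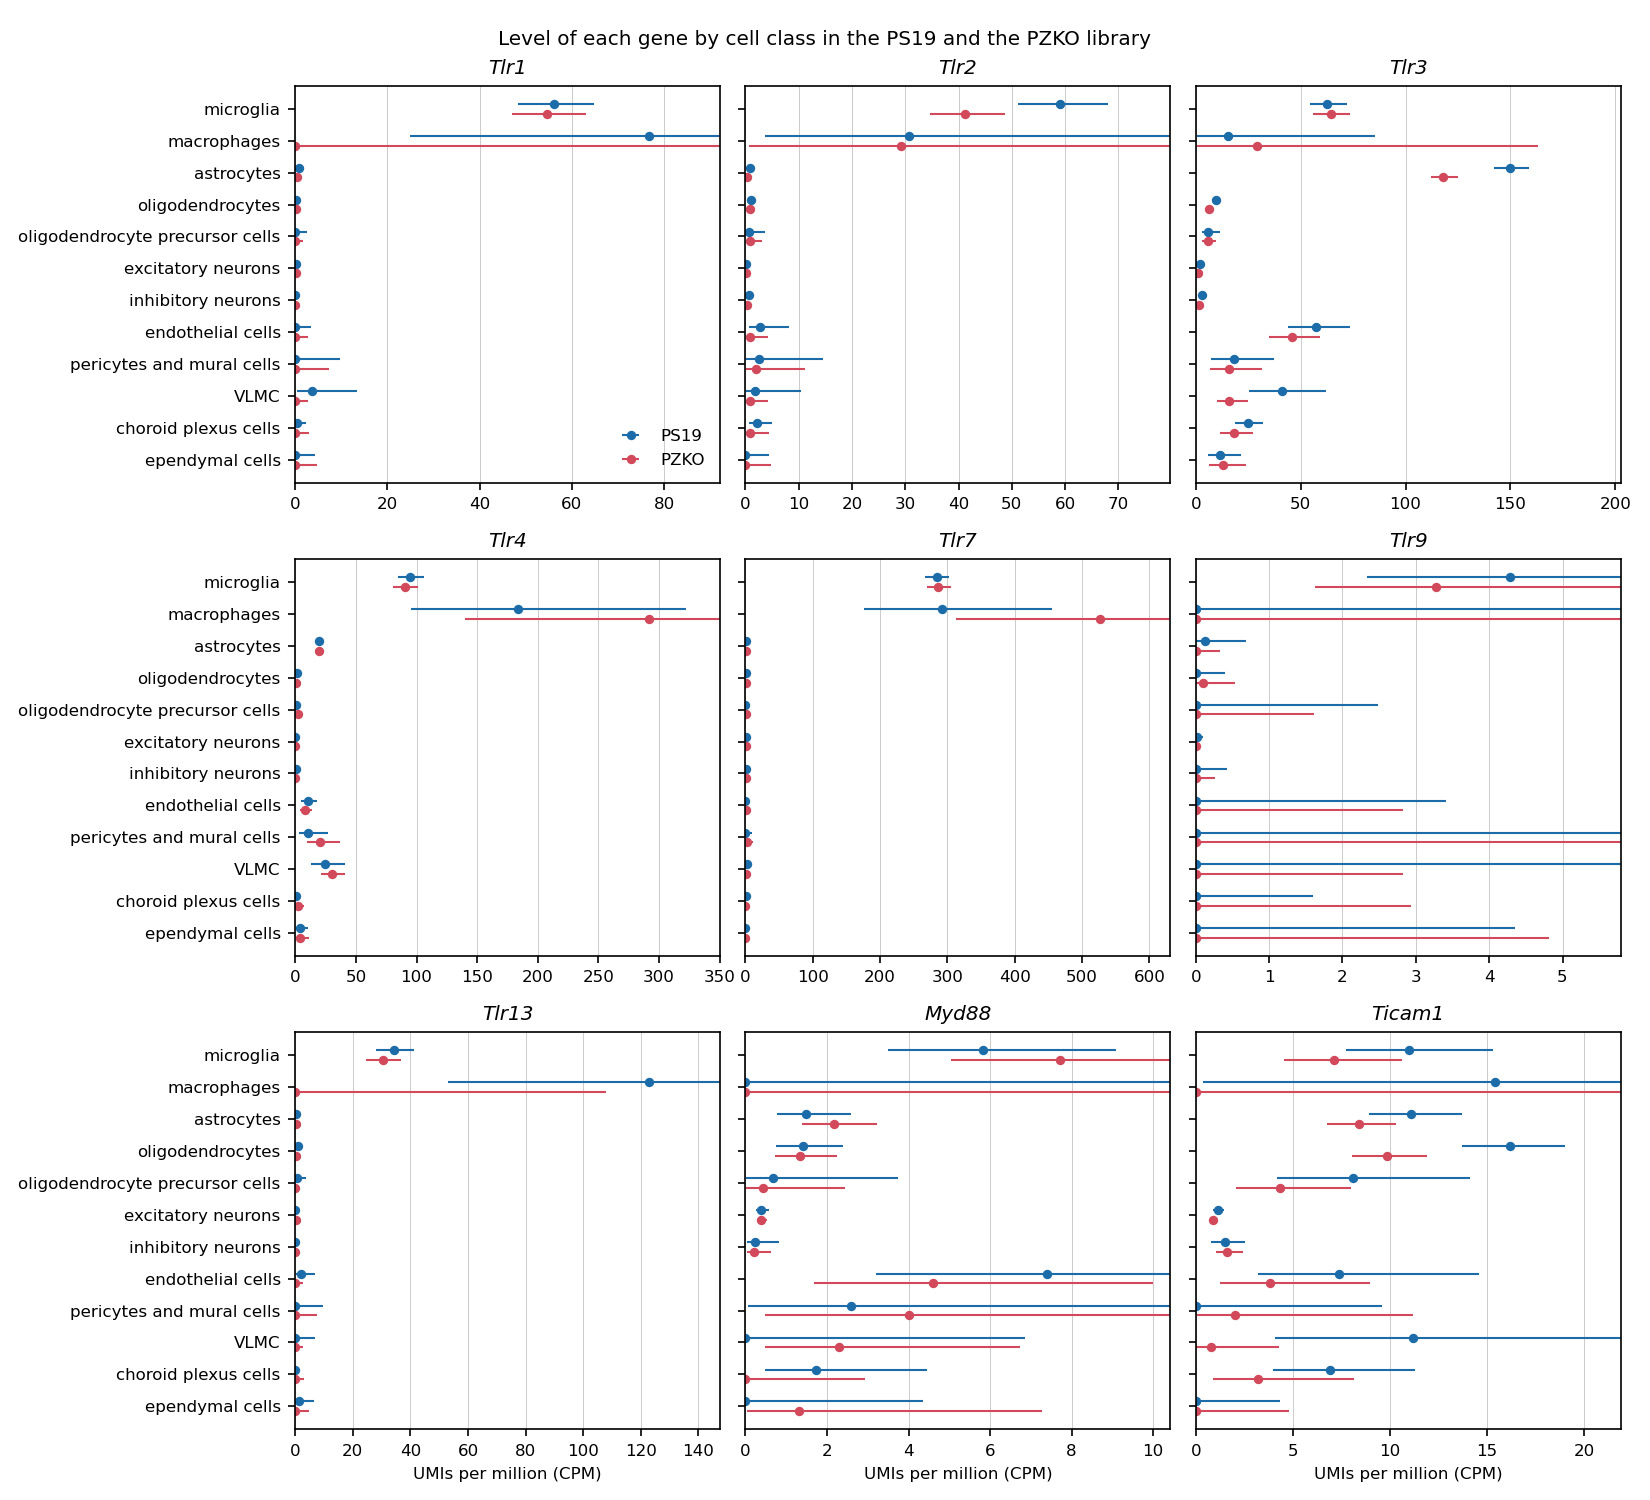
Level of each gene (x axis, CPM, a separate linear scale for each gene) in the main cell classes (y axis), with a point for each library and a bar for its exact Poisson 95% interval, some of which run past the axis. *Tlr3* is highest in astrocytes with PS19 (150 CPM) above PZKO (118 CPM), and *Tlr7*, *Tlr1*, *Tlr2* and *Tlr13* stand near 0 outside microglia and macrophages. *Ticam1* is spread over the glial classes and, from few UMIs, over others such as VLMC, endothelial and choroid plexus cells.

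The astrocytes formed clusters of distinct leading genes, and *Tlr3* was lower in PZKO in both. The first (516 PS19 and 664 PZKO nuclei) was led by *Gpc5*, *Slc7a10* and *Slc6a11*, and the second (567 and 502 nuclei) by *Aqp4*, *Gfap*, *A2m*, *Cd44* and *Osmr*, genes of reactive astrocytes among them. *Tlr3* was at 128 CPM in PS19 (116 to 141) and 99.6 CPM in PZKO (91.5 to 108) in the *Slc7a10* cluster. It was at 166 CPM (155 to 178) and 137 CPM (127 to 147) in the *A2m* cluster, which was higher than the *Slc7a10* cluster in each library. The log2 ratios were -0.36 (-0.55 to -0.18) and -0.28 (-0.43 to -0.13), so the lower level over all astrocytes was also seen with each cluster taken alone. Of the genes that led the *A2m* cluster, *A2m* was lower in PZKO within it (307 CPM against 190 CPM, log2 ratio -0.70), and so was *Gfap* (1577 CPM against 1324 CPM, -0.25), whereas *Cd44* was at 259 CPM and 286 CPM (0.14, 0.03 to 0.25). *Ticam1* UMIs were found in 8.14% of PS19 and 8.16% of PZKO astrocytes that had *Tlr3* UMIs and in 5.41% and 5.86% of those that had none, but the nuclei with *Tlr3* were also the deeper ones (median 7708 against 5942 UMIs in PS19 and 10248 against 7551 UMIs in PZKO).

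*Tlr4*, the lipopolysaccharide receptor, was divided between microglia and astrocytes. Microglia had 94.7 CPM in PS19 (84.4 to 106, 309 UMIs) and 90.5 CPM in PZKO (80.7 to 101, 305 UMIs), and astrocytes had 19.5 CPM (16.6 to 22.8, 158 UMIs) and 19.2 CPM (16.7 to 22, 213 UMIs). Neither class differed between the libraries beyond counting error, with log2 ratios of -0.06 (-0.30 to 0.17) and -0.02 (-0.32 to 0.29). The astrocyte level was 20.6% and 21.2% of the microglial one, while the 9 microglial markers in astrocytes were at a median of 1.03% and 0.791% and at most 12.5% and 10.2%. It was carried mainly by the *A2m* cluster, with 28.6 CPM in PS19 (24 to 33.9) and 31 CPM in PZKO (26.5 to 36), against 6.57 CPM (4.12 to 9.95) and 7.7 CPM (5.57 to 10.4) in the *Slc7a10* cluster. VLMC were at 24.2 and 30 CPM, of which only the PZKO value exceeded that of astrocytes beyond counting error (1.56 times, 1.08 to 2.2). In the 20 PS19 and 10 PZKO macrophages *Tlr4* was at 184 CPM (95.2 to 322) and 292 CPM (140 to 538), from 12 and 10 UMIs. Endothelial cells were at 10.2 and 7.67 CPM and excitatory neurons at 0.136 and 0.159 CPM.

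*Tlr7*, the receptor of single-stranded RNA, gave the most UMIs of any member in microglia and was the least different between the libraries. It was at 284 CPM in PS19 (266 to 303, 927 UMIs) and 286 CPM in PZKO (269 to 305, 965 UMIs), a log2 ratio of 0.01 (-0.12 to 0.14). UMIs were found in 51.7% and 59.2% of microglia, and in 39.5% (36.1% to 42.9%) and 43% (39.3% to 46.8%) after thinning to 2000 UMIs, which left out 125 PS19 and 61 PZKO microglia. The share in astrocytes, a class with little *Tlr7* (0.617 and 0.271 CPM), was 0.462% and 0.257% before thinning. The median depths there were 6894 and 8954.5 UMIs, against 3311 and 4171 UMIs in microglia. The microglial level was 460 times the astrocyte level in PS19 (196 to 1420) and 1058 times in PZKO (361 to 5137). Macrophages had *Tlr7* at 292 CPM (176 to 456, 19 UMIs) and 526 CPM (312 to 832, 18 UMIs), and only the PZKO value exceeded that of microglia (1.84 times, 1.08 to 2.92).

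*Tlr2*, which pairs with TLR1 or TLR6 to bind lipopeptides, had the largest log2 ratio in size among the 6 members with at least 100 UMIs in microglia. It was at 59.1 CPM in PS19 (51.1 to 68.1, 193 UMIs) and 41.3 CPM in PZKO (34.7 to 48.7, 139 UMIs), intervals that do not overlap, and the log2 ratio was -0.52 (-0.84 to -0.20). Of the 8501 genes with at least 100 UMIs in microglia, 5.6% had a ratio as low or lower. *Tlr2* UMIs were found in 14.9% and 14.4% of microglia, and in 9.23% (7.34% to 11.4%) and 6.89% (5.12% to 9.03%) after thinning, which overlap. In oligodendrocytes, a class with little *Tlr2* (0.97 and 0.765 CPM), the share was 0.35% and 0.355% before thinning and 0.322% and 0.192% after it. The median depths there were 3335 and 4259.5 UMIs.

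*Tlr1* was at 56.1 CPM in PS19 microglia (48.2 to 64.8, 183 UMIs) and 54.6 CPM in PZKO microglia (47 to 63.1, 184 UMIs), a log2 ratio of -0.04 (-0.34 to 0.27). *Tlr13*, a receptor of mice that has no human counterpart, was at 34.3 CPM (28.2 to 41.3, 112 UMIs) and 30.3 CPM (24.7 to 36.8, 102 UMIs), a log2 ratio of -0.18 (-0.58 to 0.22). Neither differed beyond counting error. Macrophages gave 5 UMIs of *Tlr1* and 8 UMIs of *Tlr13* in PS19 and 0 UMIs of both in PZKO, where 3 UMIs would have been 87.7 CPM, so that their absence from PZKO macrophages could not be read. *Tlr9*, the receptor of CpG DNA, had 14 UMIs in PS19 microglia (4.29 CPM, 2.34 to 7.2) and 11 UMIs in PZKO microglia (3.27 CPM, 1.63 to 5.84), and 2 UMIs in each library outside them. Its log2 ratio of -0.39 (-1.68 to 0.85) could not be distinguished from 0 at this depth.

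The adaptors had other orders of levels than the receptors. *Ticam1* was at 16.2 CPM in PS19 oligodendrocytes (13.7 to 19, 150 UMIs), 11.1 CPM in astrocytes (8.93 to 13.7, 90 UMIs) and 11 CPM in microglia (7.72 to 15.3, 36 UMIs). In PZKO it was at 9.85 CPM (8.04 to 11.9, 103 UMIs), 8.4 CPM (6.78 to 10.3, 93 UMIs) and 7.12 CPM (4.56 to 10.6, 24 UMIs). Oligodendrocytes exceeded astrocytes in PS19 (1.46 times, 1.11 to 1.91) and not beyond counting error in PZKO (1.17 times, 0.877 to 1.57), and astrocytes and microglia did not differ in either library. In all 3 classes the PZKO value was the lower one, with log2 ratios of -0.72 (-1.09 to -0.34) in oligodendrocytes, -0.40 (-0.84 to 0.03) in astrocytes and -0.63 (-1.44 to 0.15) in microglia, of which the first alone exceeded counting error. Among the 10727 genes with at least 100 UMIs in oligodendrocytes, 2.59% had a ratio as low or lower than that of *Ticam1*. After thinning to 2000 UMIs, *Ticam1* UMIs were found in 3.27% of PS19 (2.56% to 4.1%) and 1.96% of PZKO oligodendrocytes (1.41% to 2.65%), and in 5.33% and 4.44% before it. In excitatory neurons, a class with little *Ticam1* (1.15 and 0.869 CPM), the thinned shares were 0.255% and 0.169%. The libraries filled the 3 large oligodendrocyte clusters unequally, with 1271 PS19 and 622 PZKO nuclei in the first, 513 and 950 in the second and 775 and 661 in the last. Taken apart, the ratios in them were -0.45 (-1.19 to 0.26), -0.89 (-1.60 to -0.17) and -0.73 (-1.35 to -0.12).

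*Myd88* was low in every class. Microglia had 5.82 CPM in PS19 (3.5 to 9.09, 19 UMIs) and 7.72 CPM in PZKO (5.04 to 11.3, 26 UMIs), and endothelial cells had 7.4 CPM (3.2 to 14.6, 8 UMIs) and 4.6 CPM (1.69 to 10, 6 UMIs), which did not differ from microglia in either library. The microglial level was 3.93 times that of astrocytes in PS19 (1.81 to 8.87) and 3.56 times in PZKO (1.97 to 6.48). The log2 ratios between the libraries were 0.41 (-0.50 to 1.34) in microglia and 0.55 (-0.51 to 1.68) in astrocytes, and neither could be distinguished from 0.

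A gene was counted as past the fold limit when its log2 ratio was at least 0.25 in size, the limit of the study's volcano plots, among genes with at least 100 UMIs in the class. In microglia 6 members had that many UMIs (all receptors but *Tlr9*), of which 1, *Tlr2*, was lower in PZKO and 0 were higher, beside 20.2% and 13.4% of all such genes. Astrocytes had 3 such members, of which *Tlr3* and *Ticam1* were lower and 0 were higher, beside 25.7% and 10.2% of all genes. In oligodendrocytes *Tlr3* and *Ticam1* qualified and both were lower, beside 23.1% of all genes lower and 10.0% higher. The same pair qualified in excitatory neurons and was lower in both cases, beside 24.9% lower and 11.4% higher. *Ticam1* was there at -0.41, with an interval that includes 0 (-0.89 to 0.08). In oligodendrocytes and excitatory neurons *Tlr3* lay near the median of the astrocyte markers, so its ratios there are not read as differences. The microglial count is close to the background, and the other counts rest on 2 or 3 genes. Ratios of *Tlr3* in astrocytes and in microglia (0.04, -0.25 to 0.32) differ in value, but the difference between the classes was not tested, and their intervals meet.

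**Figure D3:**
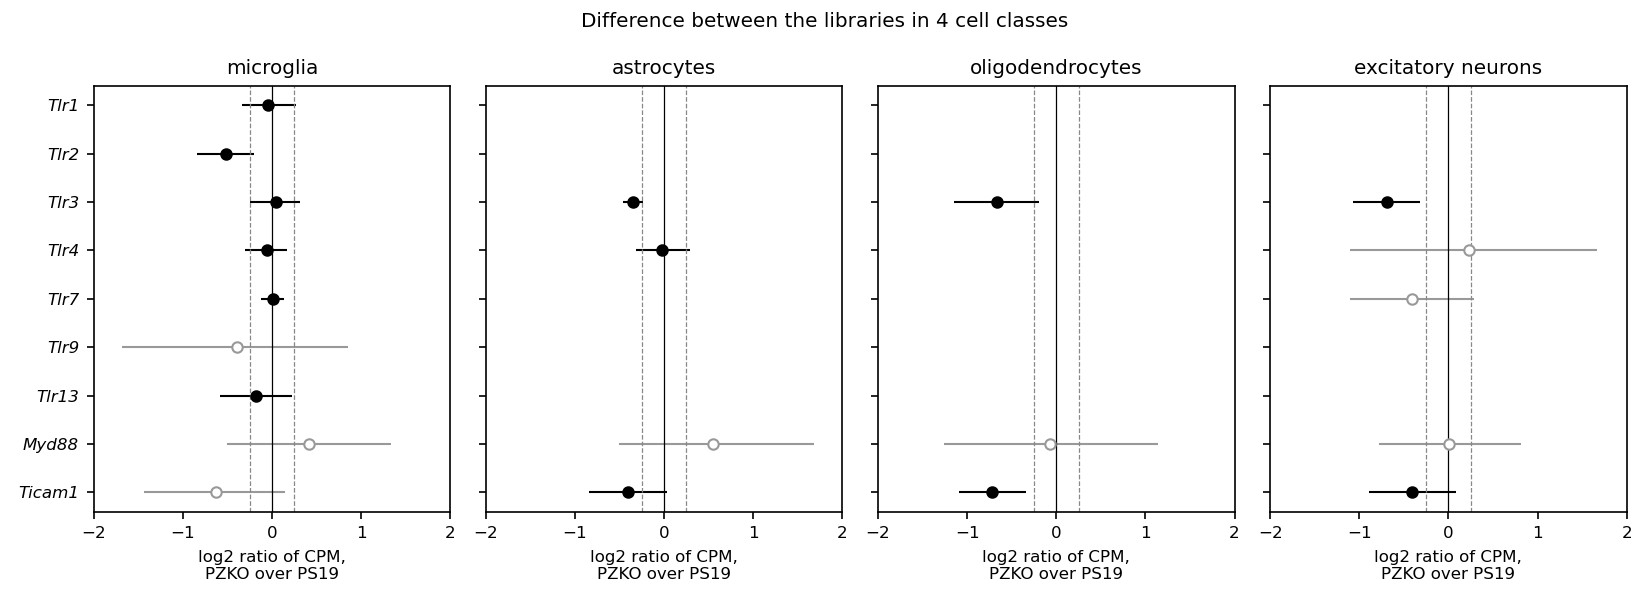
Log2 ratio of CPM in the PZKO over the PS19 library (x axis) for each member (y axis) with at least 20 UMIs in 4 cell classes, with bars for the exact 95% interval of counting error, filled points for at least 100 UMIs and dashed lines at -0.25 and 0.25. *Tlr2* in microglia (-0.52), *Tlr3* in astrocytes (-0.35) and *Ticam1* in oligodendrocytes (-0.72) lie to the left with intervals clear of 0, while *Tlr1*, *Tlr4* and *Tlr7* in microglia lie at 0.

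Microglia were clustered again without the 9 genes and the pathway genes, to see in which of them the receptors lay. These values describe the nuclei only, since levels of any gene may follow how the nuclei were clustered. The sub-cluster with *Bank1* and *Adcy8* first among its leading genes had all 7 homeostatic markers above the rest of microglia, and the one led by *Gpnmb* and *Atp6v0d2* had all 8 disease-associated markers above the rest. Another, led by *Top2a*, *Cxcl10* and *Oasl1*, had all 7 interferon-response markers above the rest and held 46 PS19 and 79 PZKO nuclei. A further one had *Ctnna3*, *H2-Eb1*, *Cd74*, *Lpl* and *Tnf* among its leading genes. The largest sub-cluster, with 353 PS19 and 187 PZKO nuclei, had 6 of the 7 homeostatic markers above the rest. Its leading genes included endothelial genes such as *Slco1a4* and *Tek*, and the part of these genes in its values was not tested.

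*Tlr2* was highest in the *H2-Eb1* sub-cluster in PS19, at 116 CPM (93.2 to 142, 92 UMIs), where PZKO had 53.5 CPM (39.3 to 71.1, 47 UMIs). The PZKO library had another order, with 76.8 CPM (52.5 to 108) in the *Cxcl10* and 63.4 CPM (40.6 to 94.4) in the *Gpnmb* sub-cluster. These intervals overlap that of the PZKO *H2-Eb1* sub-cluster. The log2 ratio in the *H2-Eb1* sub-cluster was -1.11 (-1.65 to -0.59), the one *Tlr2* ratio among the 5 larger sub-clusters whose interval was clear of 0. It was -0.59 (-1.40 to 0.18) in the sub-cluster led by endothelial genes, -0.88 (-2.09 to 0.32) in the *Bank1*, 0.52 (-0.34 to 1.37) in the *Gpnmb* and 0.58 (-0.45 to 1.71) in the *Cxcl10* sub-cluster. In the *Bank1* sub-cluster *Tlr2* was at 26.3 CPM (14.4 to 44.1) and 14.3 CPM (7.63 to 24.5). Without the sub-cluster led by endothelial genes and a small one of 14 nuclei led by oligodendrocyte genes, *Tlr2* was at 66.9 CPM in PS19 and 44.9 CPM in PZKO, a log2 ratio of -0.58 (-0.94 to -0.21).

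*Tlr3* was highest among microglia in the *Cxcl10* sub-cluster, at 88.9 CPM in PS19 (53.5 to 139, 19 UMIs) and 134 CPM in PZKO (101 to 174, 56 UMIs), a log2 ratio of 0.60 (-0.18 to 1.43). The PZKO value was above that of the PZKO *H2-Eb1* sub-cluster, 37.6 CPM (25.9 to 52.8), and that of the PZKO *Gpnmb* sub-cluster, 37 CPM (20.2 to 62.1). It was not set apart from the *Bank1* sub-cluster with the homeostatic markers, where *Tlr3* was at 83.7 CPM in PZKO (66 to 105). In PS19 the *Bank1* value was 75.2 CPM (53.7 to 102), and the interval of the *Cxcl10* sub-cluster overlapped those of all the others. *Tlr7* differed in direction between the sub-clusters, with a log2 ratio of 0.49 (0.15 to 0.83) in the *Bank1* sub-cluster, 0.72 (0.22 to 1.24) in the *Cxcl10* sub-cluster and -0.38 (-0.74 to -0.03) in the *Gpnmb* sub-cluster, beside 0.01 over all microglia. These differences were not tested. *Tlr4* was at 67.9 CPM to 130 CPM in PS19 and 72.9 CPM to 127 CPM in PZKO over the 5 larger sub-clusters. Its ratio was clear of 0 in the sub-cluster led by endothelial genes, at 130 CPM against 90.9 CPM (-0.51, -0.96 to -0.08). *Tlr13* was at 41.1 CPM (30 to 55) in PS19 and 18.5 CPM (9.83 to 31.6) in PZKO in the sub-cluster led by endothelial genes, a log2 ratio of -1.15 (-2.17 to -0.24).

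**Figure D4:**
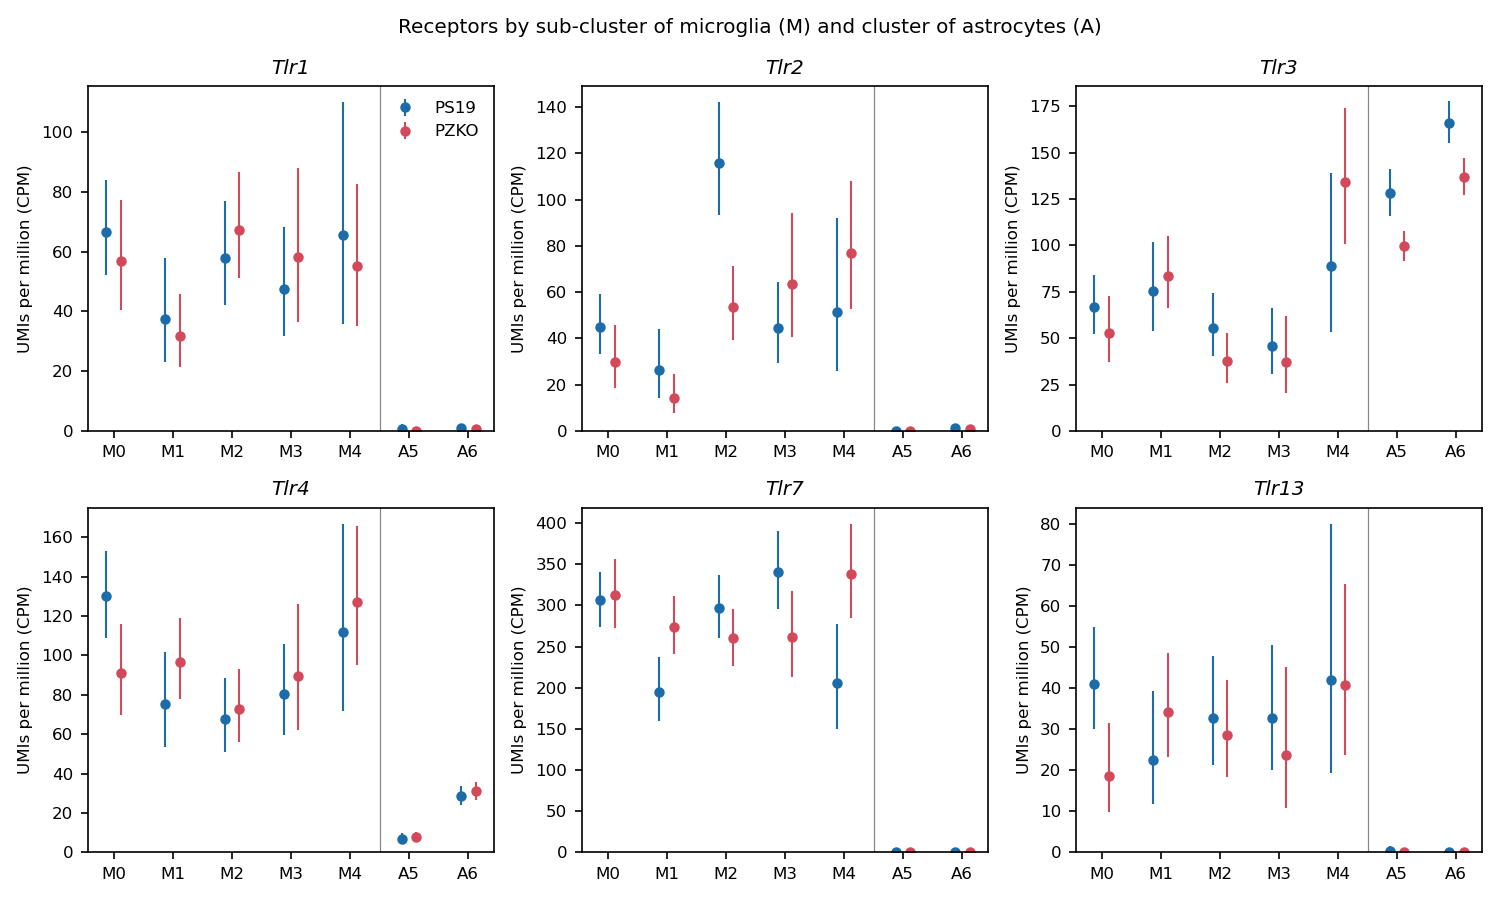
Level of 6 receptors (y axis, CPM from 0) in the microglial sub-clusters (M0 led by endothelial genes, M1 by *Bank1*, M2 with *H2-Eb1*, M3 by *Gpnmb*, M4 with *Cxcl10*) and the astrocyte clusters (A5 with *Slc7a10*, A6 with *A2m*), with exact Poisson 95% intervals. *Tlr2* in M2 is at 116 CPM in PS19 and 53.5 CPM in PZKO, *Tlr3* in M4 reaches 134 CPM in PZKO, and *Tlr4* is higher in A6 than in A5 in both libraries.

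The other genes of the pathway showed no common direction in microglia. Of 52 further genes in lists by role, 46 had at least 20 UMIs, with a median log2 ratio of 0.02 beside -0.03 for all 12909 such genes, and 11 were lower and 9 higher past the fold limit (23.9% and 19.6%, beside 26.2% and 18% of all genes). Among co-receptors, *Cd14*, which passes lipopolysaccharide to TLR4, was at 41.7 CPM in PS19 and 24.3 CPM in PZKO, a log2 ratio of -0.78 (-1.19 to -0.37). *Cd180*, a relative of TLR4 without a signalling domain, was at 399 and 517 CPM (0.37, 0.27 to 0.48), and its partner *Ly86* at 2073 and 2272 CPM (0.13, 0.08 to 0.18). Of the 3 other adaptors 2 were lower, *Tirap* (-0.45, -1.14 to 0.23) and *Sarm1* (-0.63, -1.95 to 0.62), both with intervals that include 0, and *Ticam2*, which links TLR4 to TRIF, was within the limit at -0.19 (-0.75 to 0.36).

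The list of 15 kinases and ubiquitin ligases also holds genes of proteins that bind these kinases, such as *Tab2* and *Tab3*. In microglia 1 of the 15 was lower and 3 were higher (*Traf6*, *Tab2* and *Tab3*, the last with an interval that includes 0), beside 26.2% of all genes lower and 18% higher. They ran from *Ripk1*, a kinase of inflammation and cell death (77.2 and 62.9 CPM, log2 ratio -0.29, -0.57 to -0.03), to *Traf6*, the ubiquitin ligase downstream of MyD88 (60 and 77.8 CPM, 0.37, 0.10 to 0.65). *Irak2* gave the most UMIs and was at 514 and 528 CPM. The 5 transcription factors ran from *Irf3* (75 and 59.4 CPM, -0.34, -0.61 to -0.06) through *Nfkb1* (514 and 525 CPM, 0.03) to *Irf7* (15 and 30 CPM, 1.0, 0.49 to 1.52). Of 5 inhibitors 1 was higher, *Tollip*, with an interval that reaches 0 (0.53, -0.00 to 1.07), and *Cyld*, the one with the most UMIs, was at -0.15. Of the 7 induced cytokines 5 were lower (*Il1b*, *Tnf*, *Ccl3*, *Ccl4* and *Il6*) and 2 higher (*Cxcl10* and *Ccl5*), beside 26.2% and 18% of all genes, and the interval of *Il6* included 0 (-0.31, -1.40 to 0.76). *Il1b* was at 27.9 CPM in PS19 and 10.4 CPM in PZKO (-1.42, -2.03 to -0.85) and *Ccl4* at 117 and 90.5 CPM (-0.37, -0.59 to -0.15), whereas *Cxcl10*, a chemokine induced by interferon, was at 7.05 and 43 CPM (2.61, 1.97 to 3.31). *Cxcl10* and *Irf7* were among the leading genes of the sub-cluster with the interferon-response markers, which held 46 PS19 and 79 PZKO nuclei. The part of this sub-cluster in their ratios was not tested.

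The cytosolic sensors of double-stranded RNA, set beside *Tlr3* for their shared ligand, were higher in PZKO microglia in 4 of 5 cases (*Ifih1*, *Ddx58*, *Dhx58* and *Eif2ak2*), with a median log2 ratio of 0.54, beside 18% of all genes higher and a median of -0.03. The interval of *Dhx58* included 0 (0.45, -0.02 to 0.93). The sub-cluster with the interferon-response markers held 46 of the 948 PS19 and 79 of the 758 PZKO microglia, and its part in these values was not tested. *Ifih1* was at 74.4 CPM in PS19 and 121 CPM in PZKO (0.71, 0.47 to 0.94) and *Eif2ak2*, which codes for the kinase PKR, at 140 and 204 CPM (0.54, 0.37 to 0.72). *Mavs*, which codes for the adaptor of the *Ifih1* and *Ddx58* products and not for a sensor, was the exception at 35.8 and 23.2 CPM (-0.63, -1.06 to -0.20). *Tlr3* was at 0.04 in the same nuclei. In astrocytes *Tlr3* was at -0.35 and the sensors at a median of 0.18, and *Dhx58* alone of the 5 was past the limit, from 47 UMIs (0.94, -0.02 to 1.98). *Ifih1* was at 0.21 (-0.04 to 0.46) and *Eif2ak2* at 0.01 (-0.14 to 0.16) there.

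In astrocytes 37 of the 52 pathway genes had at least 20 UMIs, with a median log2 ratio of -0.07, the same as that of all 15550 such genes, and 11 were lower and 3 higher (29.7% and 8.11%, beside 30.1% and 13.4% of all genes). The co-receptors and trafficking proteins stood lowest, with 6 of 7 past the limit and a median of -0.51, though the intervals of 3 of the 6 included 0 (*Cd14* -0.57, -1.43 to 0.29, *Ly86* -0.26, -0.89 to 0.37, and *Lbp* -0.87, -1.94 to 0.17). *Ly86* was at 2073 and 2272 CPM in microglia, and the part of free RNA in its astrocyte value was not tested. This list was also low in oligodendrocytes, with a median of -0.48 and 5 of 8 lower, beside 28.1% of all genes. In excitatory neurons its median was -0.28, with 4 of 8 lower beside 28.3%, and in microglia it was 0.04. *Hsp90b1*, the chaperone that folds Toll-like receptors and many other proteins of the endoplasmic reticulum, was at 178 CPM in PS19 and 115 CPM in PZKO (-0.64, -0.75 to -0.53), and *Ly96*, the partner of TLR4, at 7.28 and 6.95 CPM (-0.07, -0.58 to 0.45). *Unc93b1*, which carries TLR3, TLR7 and TLR9 to endosomes, is one of this list and was chosen for mention after its value was seen, at -0.51 (-0.83 to -0.18) in astrocytes and -0.09 (-0.18 to -0.00) in microglia. The ratio of *Hsp90b1* was also below the limit in microglia (-0.52, -0.65 to -0.39), oligodendrocytes (-0.57, -0.66 to -0.48) and excitatory neurons (-0.37, -0.42 to -0.32). Of the 6 inhibitors in astrocytes 2 were lower, *Irak3* with 26 UMIs and *Nfkbia*, the inhibitor of NF-kappaB that NF-kappaB itself induces (80.2 and 55.8 CPM, -0.52, -0.69 to -0.36). The list of kinases and ubiquitin ligases had a median of 0.01, with *Tab2* at 0.23 (0.14 to 0.33), *Traf6* at -0.24 (-0.45 to -0.03) and *Ripk1* at 0.37 (0.15 to 0.59), so *Traf6* and *Ripk1* had signs opposite to those in microglia. *Cxcl10* was at 46.9 and 39.4 CPM in astrocytes (-0.25, -0.45 to -0.05), likewise opposite to microglia. None of these differences between the classes was tested.

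**Figure D5:**
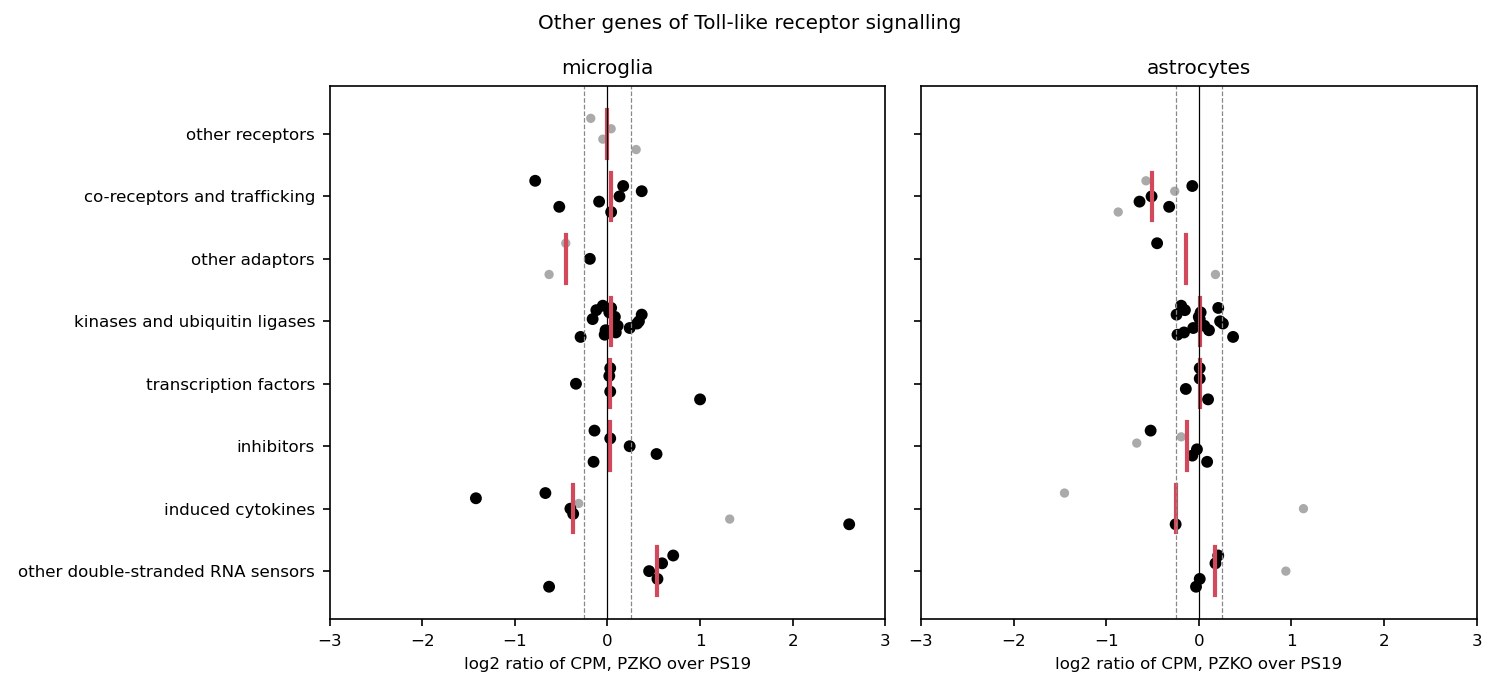
Log2 ratio of CPM in the PZKO over the PS19 library (x axis) of each pathway gene with at least 20 UMIs, by list (y axis) in microglia and astrocytes, with black points for at least 100 UMIs, grey points for fewer, a red line at each list's median and dashed lines at -0.25 and 0.25. In microglia the RNA sensors lie to the right (median 0.54) and *Cxcl10* farthest (2.61), and in astrocytes co-receptors and trafficking proteins lie to the left (median -0.51).

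The genes most like each member were found by the correlation of log2(CPM + 1) over 30 points, 15 named classes in each of the libraries, among 17020 genes with at least 200 UMIs. The points share libraries and small classes, so the values describe only this set. *Tlr2* was most like *Pld4* (r = 0.960), *Cd180* (0.957) and *Tbxas1* (0.954), and *Tlr7* most like *Hk3* (0.954) and *Slc11a1* (0.95). *Tlr1* was most like *Ptafr* (0.953), the receptor of platelet-activating factor, and *Tlr13* was most like *AY512915* (0.924), with the chemokine gene *Ccl3* (0.884) also among its 5 nearest. *Tlr3* was most like *Fmo5* (0.857), *Sft2d2* (0.849), the cytokine gene *Il15* (0.829), the astrocyte marker *Aldoc* (0.822) and *Parp12* (0.802). *Tlr4* was most like *Hk2* (0.896) and the receptor tyrosine kinase gene *Axl* (0.890). For the adaptors the nearest genes were less alike, at 0.782 for *Myd88* with *Hfe* and 0.772 for *Ticam1* with *Gins2*.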

How the data were processed

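The authors counted UMIs per gene and nucleus, and the deposited counts are whole numbers without normalization. Per the submitters' notes Cell Ranger 7.0.1 and mm10 were used, whereas the file headers name 8.0.1. The authors' ambient correction, filters and doublet removal are not in these counts, and whether strand was used in counting is not given in the sources used here. Nuclei with at least 600 UMIs, 300 genes and at most 5% mitochondrial UMIs were kept, the highest Scrublet scores were removed (0.8% per 1000 nuclei), and 30 principal components of 2000 variable genes were clustered (scanpy 1.11.5, Leiden resolution 1). Clusters were named from marker lists, by thresholds set after the clusters were seen. UMIs were summed per class and library and scaled to 1000000 (CPM). Intervals are exact (Poisson, binomial, conditional binomial for ratios). Those of ratios were run on counts simulated from a Poisson model, which leaves out any clustering of UMIs within nuclei. Members and lists were chosen with earlier results of these data known. Named list genes are those with the most UMIs and the lowest and highest ratio. Genes named beside a count of 5 or fewer were named after their values were seen. Alternatives include scaling by edgeR 4.0.16 and DESeq2 1.42.0.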

Additional observations from a re-analysis of the deposited data

How the results depend on the processing

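The log2 ratio of *Tlr3* in astrocytes stayed between -0.36 and -0.26 over 12 alternatives, closest to 0 with DESeq2 size factors. The count of members in microglia past the fold limit depended on the settings. It was 2 lower (*Tlr2* and *Tlr13*) with the mean over nuclei, with a Leiden resolution of 0.5 and with macrophages counted with microglia. It was 3 lower (*Tlr2*, *Tlr9* and *Ticam1*) and 1 higher (*Myd88*) at a minimum of 20 UMIs and with no minimum. The number of members highest in microglia or macrophages was 7 or 8. It was 8 with the stricter filter on nuclei and with each library clustered on its own, where *Ticam1* was highest in macrophages instead of oligodendrocytes. The pathway medians ran from -0.01 to 0.06 in microglia and from -0.14 to 0.02 in astrocytes, changes under 0.1. Of 126 values for 12 other ratios of single members under alternatives added after seeing the data, 125 lay within the counting interval and 0 reversed a called direction. The alternatives reuse mostly the same UMIs, so most values were likely to lie within the counting interval from the start. This count therefore says nothing of further libraries. A direction was called only where the main ratio was at least 0.25 in size. Ratios nearer 0 could not count as reversed, and some changed sign, such as *Tlr3* in microglia (-0.09 to 0.18) and *Tlr4* in astrocytes (-0.18 to 0.07). *Ticam1* in excitatory neurons, at -0.41, was within the fold limit at -0.23 after subtraction of an ambient share of 10%. The 1 value outside the counting interval was *Tlr3* in excitatory neurons, at -4.02 after the same subtraction. Its levels there were 2.07 CPM in PS19 and 1.28 CPM in PZKO, beside 18.6 and 12.7 CPM over all nuclei kept. The subtracted 10% share thus removed most of it in PS19 and nearly all in PZKO, and this ratio is not read as a difference. No paired analysis was possible because each genotype has 1 library. Depth limited *Tlr9*, *Myd88* and all macrophage values.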
